A study of Mus musculus with 6 samples.

Results

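Ribosome biogenesis is the nucleolar work of transcribing ribosomal RNA with RNA polymerase I, modifying and cutting it, and building it into the small (40S) and large (60S) ribosomal subunits. The factors that do this leave the particle before it is used, so they are not part of the finished ribosome. Activated T cells are known to enlarge their nucleoli and to raise these factors before they divide, and the transcription factor MYC is known to bind many of their genes. A list of 34 such genes and the other gene lists below were chosen by symbol, with earlier results of these data known. The results below follow the 34 genes in the count table of the series. All 34 were found among its 23453 gene rows, and all 34 were among the 12423 genes with enough counts to test. The lowest count of a member in any library was 374.

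RNA came from splenocyte cultures of OT1 mice on the C57BL/6 strain; OT1 is a transgenic T cell receptor that recognises an OVA peptide. All cultures received that peptide for 48 h and then FCM or TCM for 8 h, terms that the labels do not expand. The FCM samples are titled Vehicle, each group had 3 libraries, and the cell type is labelled as cytotoxic T lymphocytes. Whether the replicates are separate mice or cultures is not stated, so the p-values measure only library-to-library spread, part or all of which may be technical.

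Library totals ran from 17166687 to 25789381 counts. The replicate 1 libraries of both groups stood apart from the others on the second principal component (8.32% of the variance). Calls of members that change without them are given both ways, and the counts of the other lists without them are given at the end. The 2 deposited tables title the groups oppositely: all 6 normalized columns were proportional to the count column titled as the opposite group, and 0 to the one with their own title. Vehicle and TCM below follow the count table's header, and every direction reverses under the other header. T cell marker genes were present in all libraries (9 genes tested, summed level in TMM-scaled CPM, counts scaled to a common library size, 876 to 951 in Vehicle and 1004 to 1082 in TCM). Of these Cd3d and Cd28 were higher in TCM, Cd8a was lower and 6 did not pass. Neutrophil markers summed to 8607 to 13240 CPM in Vehicle and 1519 to 2617 CPM in TCM (10 of 11 lower). Monocyte and macrophage markers summed to 496 to 566 and 133 to 145 CPM (4 of 7 lower, 2 higher). Lyz2 alone made up most of that sum in Vehicle (393 to 447.5 CPM) but not in TCM (30.6 to 34.8 CPM). Of the next most abundant markers on that list, Cd14 was higher in TCM and Cd68 did not pass. B cell markers summed to 1759 to 2110 and 951 to 1130 CPM (5 of 7 lower). NK cell markers went from 54.3 to 60.5 CPM to 23.1 to 24.4 CPM, with Klra4 at 0. Eomes made up most of that sum (48.1 to 55.7 CPM in Vehicle, 19.6 to 20.5 CPM in TCM). Ncr1 fell from 3.02 to 3.99 CPM to 1.90 to 2.30 CPM, and Klrb1c did not pass (log2 fold change -0.20, adjusted p = 0.44, edgeR). Erythroid markers went from 10.3 to 12.1 CPM to 1.52 to 2.29 CPM, with Hba-a2 at 0. These are bulk libraries, in which fewer cells of a type and less RNA per cell cannot be told apart, and the part of other cell types in the values below was not tested.

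Most ribosome biogenesis genes were lower in the TCM libraries. Of the 34 members 21 fell, 3 rose (Npm1, Polr1c and Nhp2) and 10 did not pass an adjusted p of 0.05 (edgeR's quasi-likelihood test with Benjamini-Hochberg adjustment over all genes). Among all genes tested 58.8% were called in either direction, 30.0% lower and 28.8% higher, against 61.8% lower and 8.82% higher of the members. The median log2 fold change, TCM minus Vehicle, was -0.53 over the members and -0.018 over all genes tested. The changes were moderate, and all lay between -0.92 (Dkc1) and 0.74 (Npm1). No member fell by 2-fold or more, whereas 10.5% of all genes did. The largest falls were close to that limit: without TCM replicate 1, Polr1b (-1.01), Nop58 (-1.004) and Wdr43 (-1.02) passed it, as did Nop56 (-1.02) with a trend on exon length removed. With library totals alone Ncl, Polr1b, Nop56, Nop58, Dkc1, Wdr43 and Ddx10 passed it, with log2 fold changes from -1.132 (Dkc1) to -1.001 (Ddx10).

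The direction of each member was the same in all 3 pairs of libraries that share a replicate number, with 27 members lower in TCM in every pair and 7 higher in every pair. The share of all genes that agree in this way was not computed. The groups lay apart on the first principal component (86.4% of the variance), so such agreement is not particular to the members. The ranges of the groups did not overlap for 26 members with all TCM libraries below and for 4 with all TCM libraries above, against 33.6% and 30.6% of all genes. Leaving out Npm1 and Ncl, by far the most abundant, the members summed to 3417, 3684 and 3549 CPM in Vehicle replicates 1 to 3 and to 2757, 2716 and 2932 CPM in TCM. The count of members that rose was less firm than the count that fell. With library totals alone as scaling, which moved the median of all genes by about the same amount as that of the members (to -0.23 and -0.73), 25 members fell and 0 rose. Without replicate 1 of both groups 27 fell and 6 rose, the further 3 being Fbl, Gar1 and Nop16. Calls over all genes also grew in that setting, to 4771 lower and 4566 higher of 12585, from 3726 and 3584 of 12423. Without Vehicle replicate 3 or TCM replicate 2 a single member rose.

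**Figure D1:**
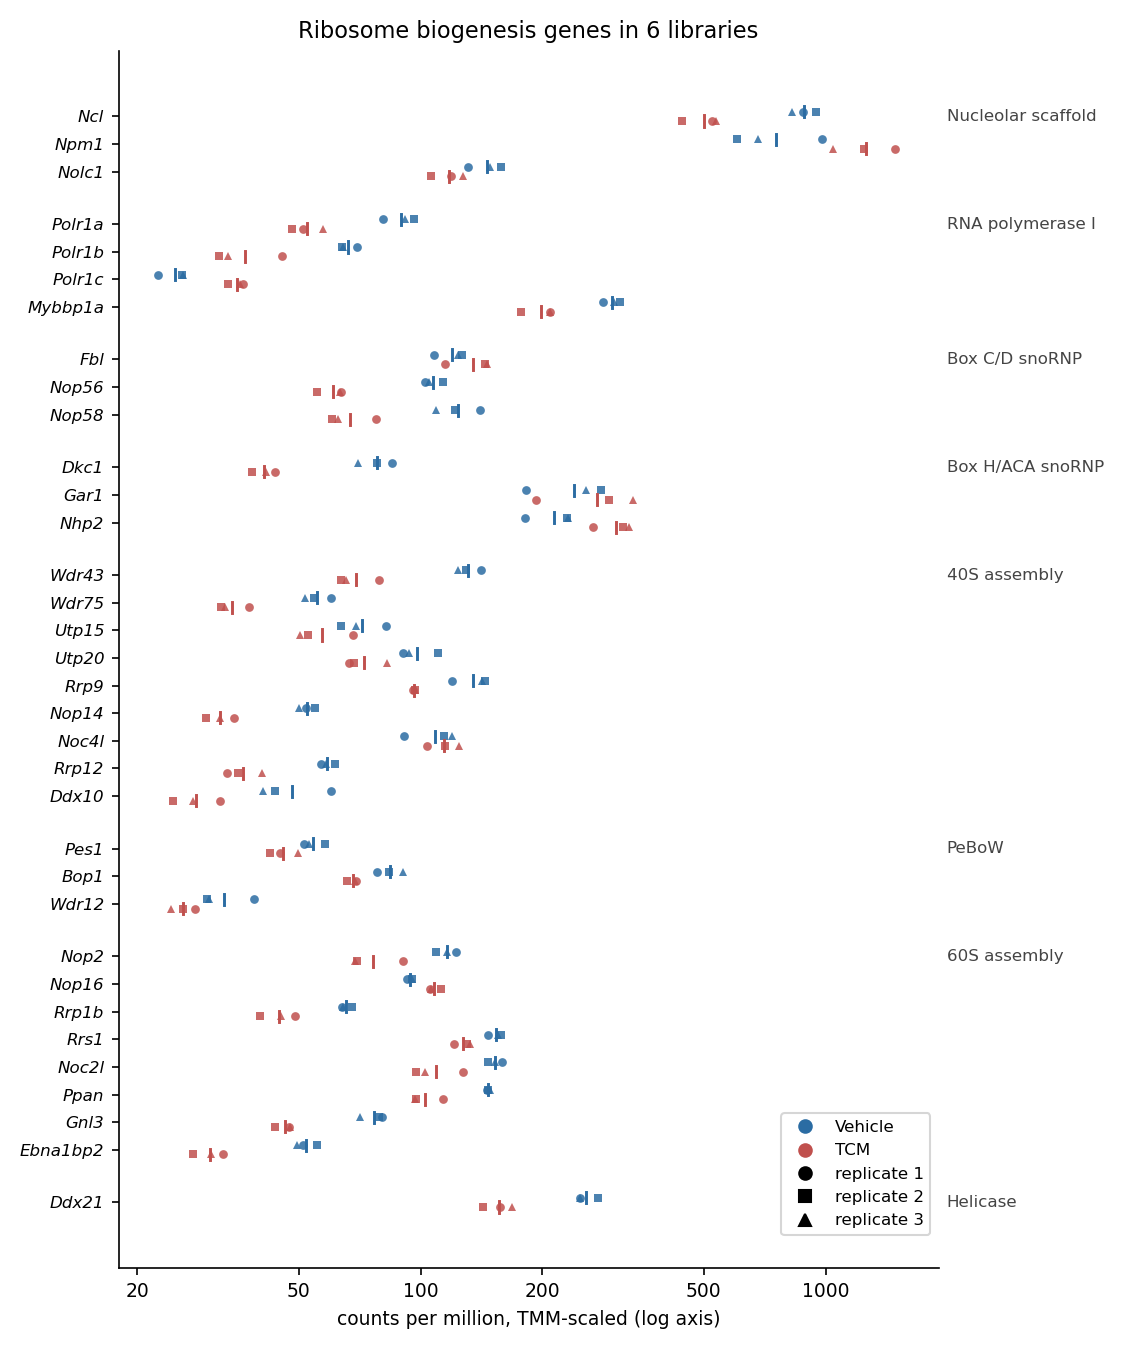
Level of each of the 34 ribosome biogenesis genes in the 6 libraries, in TMM-scaled CPM on a log axis, grouped by role (groups named by the count table's header). Points are libraries, shapes are replicate numbers and short vertical lines are group means. Ncl and Npm1 stand far to the right, and in 26 of the genes all red TCM points lie left of all blue Vehicle points.

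**Figure D2:**
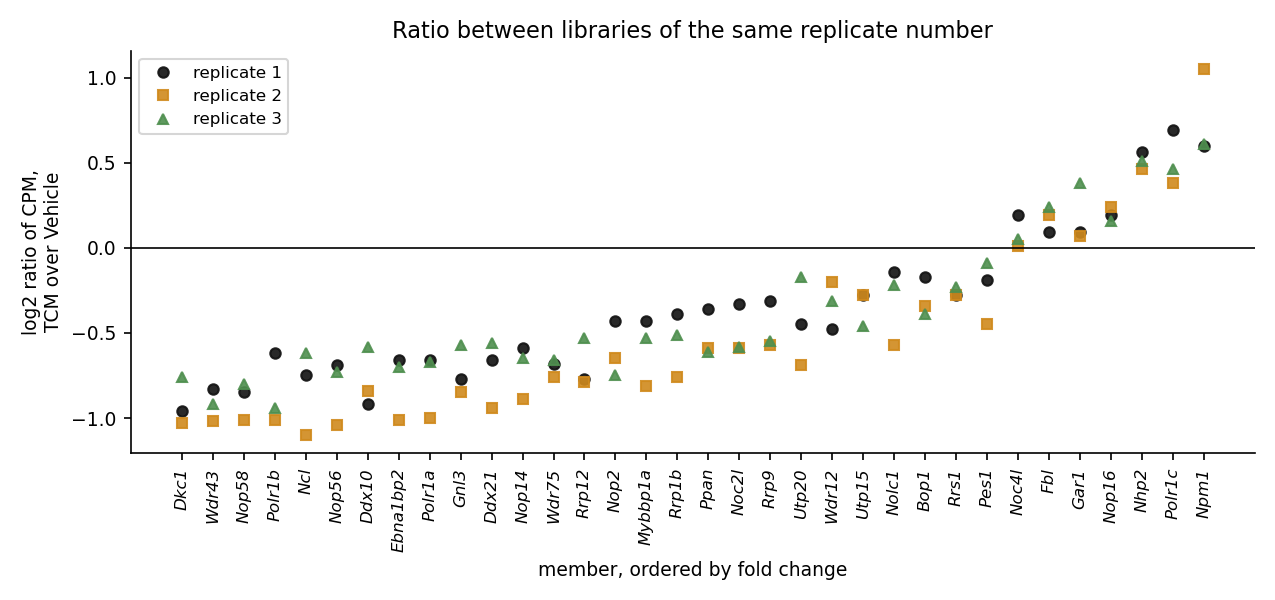
Log2 ratio of TCM over Vehicle CPM within each pair of libraries of the same replicate number, for every member in order of its fold change. In 27 members all 3 points lie below 0 and in 7 all 3 lie above it, where library totals alone as scaling would move 4 of the 7 (Noc4l, Fbl, Gar1 and Nop16) to a fitted change below 0. The share of all genes that agree in all 3 pairs was not computed.

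MYC and its partner MAX bind the E-box CACGTG, which reads the same on both strands. Promoter windows of 300 bases (250 before and 50 after the annotated start, RefSeq on GRCm38.p6) were matched for 29 members. Npm1, Fbl, Rrp12, Bop1 and Rrs1 had no entry. The E-box letters occurred in 5 of the 29 (17.2%), in 11.9% of 9253 tested genes with a window and in 8.09% of all 27025 genes with one. The 5 members were Nop2, Wdr43, Mybbp1a, Utp20 and Pes1, of which the first 4 fell and Pes1 did not pass. Of all 29 members with a window 20 fell. With only 5 matches, whether the E-box goes with the fall was not tested. A match describes the letters in the window and is not a binding site. The 5 matches are shown to let a reader see the letters found, 5′ to 3′ on the gene's strand, with the E-box in capitals. The Nop2 match lies 60 bases before the start, so the 250 bases before its start are given. The others lie just after the RefSeq start, at positions 18 (Wdr43), 41 (Mybbp1a), 38 (Utp20) and 3 (Pes1) counted from 1 at that start. The gene span given below for Wdr43 is from another annotation and begins further upstream, at 71615895.
Nop2, chr6:125131633-125131882, plus strand: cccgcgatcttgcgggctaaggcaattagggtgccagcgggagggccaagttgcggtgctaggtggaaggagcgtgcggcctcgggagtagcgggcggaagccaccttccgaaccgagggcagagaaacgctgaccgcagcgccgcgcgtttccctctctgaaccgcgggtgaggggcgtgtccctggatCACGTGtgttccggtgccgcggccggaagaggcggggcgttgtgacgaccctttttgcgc
Wdr43, chr17:71616220-71616249, plus strand: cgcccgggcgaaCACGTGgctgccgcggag
Mybbp1a, chr11:72441355-72441376, plus strand: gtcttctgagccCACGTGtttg
Utp20, chr10:88826765-88826789, minus strand: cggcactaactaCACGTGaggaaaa
Pes1, chr11:3963965-3963994, plus strand: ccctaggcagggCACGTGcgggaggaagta

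The most abundant members, the nucleolar proteins Ncl and Npm1, moved in opposite directions. Ncl (nucleolin; GRCm38 chromosome 1, 86344719 to 86359400) binds pre-ribosomal RNA and organises its early processing. It had 882, 947 and 825 CPM in Vehicle and 523, 441 and 536 CPM in TCM. Every TCM library lay below every Vehicle library, and the log2 fold change was -0.82 ± 0.16 (SE; adjusted p = 0.00227, edgeR).

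Npm1 (nucleophosmin, a histone and ribosome chaperone; chromosome 11, 33152287 to 33163206) had 978, 604 and 683 CPM in Vehicle and 1481, 1247 and 1042 CPM in TCM. The groups did not overlap, although Vehicle replicate 1 came close to TCM replicate 3. The log2 fold change was 0.74 ± 0.23 (adjusted p = 0.022). Per kilobase of coding sequence, the level of Npm1 was 1.39 to 2.42 times that of Ncl in Vehicle and 4.24 to 6.18 times in TCM. Npm1 no longer passed with library totals alone (adjusted p = 0.123), without Vehicle replicate 2 (0.0909), Vehicle replicate 3 (0.0881) or TCM replicate 2 (0.065), and its transcript matches 8 annotated pseudogenes at 90% identity or more over at least 300 bases. Nolc1, a chaperone of small nucleolar ribonucleoproteins (snoRNPs), went from 146 ± 13.4 to 118 ± 10.9 CPM (SD, n = 3). It did not pass (log2 fold change -0.31, adjusted p = 0.0802). Nolc1 passed with the replicate number as a block (adjusted p = 0.00688 in edgeR) and without Vehicle replicate 1 (0.0499). Without replicate 1 of both groups the adjusted p was 0.000436. The block and this last setting also raised the calls over all genes, and no label says what a replicate number marks.

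Among subunits of RNA polymerase I, the 2 large ones fell and a shared one rose. Polr1a encodes the largest catalytic subunit and went from 89.7 ± 7.88 to 52.4 ± 4.79 CPM (SD, n = 3), a log2 fold change of -0.78 ± 0.13 (SE; adjusted p = 0.000969, edgeR). Polr1b (chromosome 2, 129100995 to 129126594), the second largest, had 69.9, 64.1 and 64.3 CPM in Vehicle and 45.6, 31.8 and 33.5 CPM in TCM. TCM replicate 1 was the highest of its group and still below all Vehicle libraries (log2 fold change -0.84 ± 0.15, adjusted p = 0.00157).

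Polr1c (chromosome 17, 46243920 to 46248054) encodes a subunit that polymerase I shares with polymerase III. It had 22.6, 25.8 and 25.9 CPM in Vehicle and 36.4, 33.5 and 35.7 CPM in TCM, with no overlap (log2 fold change 0.51 ± 0.11, adjusted p = 0.00424). With library totals alone it did not pass (0.30, adjusted p = 0.18). Mybbp1a, a nucleolar MYB-binding protein linked to polymerase I (chromosome 11, 72441355 to 72451768), had 282, 310 and 301 CPM in Vehicle against 209, 177 and 208 CPM in TCM. All TCM libraries were lower (log2 fold change -0.59 ± 0.14, adjusted p = 0.0062).

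Other genes of the polymerase I machinery were taken from a separate list of 13. Of these 7 fell, 1 rose and 5 did not pass (8 and 3 with the replicate block). The shares were 53.8% lower and 7.69% higher, against 30.0% and 28.8% of all genes. With a trend on exon length removed 7 fell and 0 rose, and with a trend on coding length removed 3 fell and 1 rose. The strongest falls by p were Taf1a, a subunit of the promoter selectivity factor, with a log2 fold change of -1.20 ± 0.15 (SE), and Ubtf, the upstream binding factor, from 145 ± 7.40 to 74.3 ± 18.3 CPM (SD, n = 3). Polr1d, the partner of Polr1c in both polymerases, was the member of this list that rose, from 84.9 ± 4.47 to 120 ± 21.1 CPM. Its log2 fold change of 0.50 did not pass with library totals alone (0.26, adjusted p = 0.194 in edgeR).

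The row of the 45S ribosomal RNA precursor, Rn45s, took 11.2% to 18.9% of each library. It had 95452, 154310 and 155240 CPM in Vehicle and 105770, 218550 and 214750 CPM in TCM. The replicate 1 library was the lowest of each group, the groups overlapped, and the row did not pass (log2 fold change 0.41 ± 0.49 SE, adjusted p = 0.49, edgeR). How ribosomal RNA was removed before sequencing is not given in the sources used here, so this row is no measure of polymerase I activity.

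The snoRNPs carry the enzymes that modify ribosomal RNA at sites chosen by a guide RNA. In the box C/D class, which methylates the ribose, both scaffold proteins fell and the methyltransferase did not pass. Nop58 (chromosome 1, 59684971 to 59719044) had 140, 122 and 109 CPM in Vehicle and 77.6, 60.5 and 62.5 CPM in TCM. The lowest Vehicle library lay above the highest TCM library (log2 fold change -0.89 ± 0.15 SE, adjusted p = 0.00118, edgeR). Nop56 went from 107 ± 5.99 to 60.8 ± 4.58 CPM (SD, n = 3; log2 fold change -0.82, adjusted p = 0.000545).

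Fbl (fibrillarin, the methyltransferase; chromosome 7, 28169710 to 28179269) had 108, 127 and 124 CPM in Vehicle and 115, 144 and 146 CPM in TCM. The groups overlapped through TCM replicate 1. Its log2 fold change was 0.18 ± 0.15 (adjusted p = 0.323, edgeR), and without replicate 1 of both groups it was 0.20 (adjusted p = 0.0274).

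In the box H/ACA class, which converts uridine to pseudouridine, the catalytic subunit fell and a small subunit rose, although the latter had a log2 fold change of -0.05 with a trend on transcript length removed. Dkc1 (dyskerin, the pseudouridine synthase; chromosome X, 75095854 to 75109777) had 85.2, 78.2 and 70.2 CPM in Vehicle and 43.6, 38.4 and 41.5 CPM in TCM. This was the largest fall among the 34 members (log2 fold change -0.92 ± 0.12 SE, adjusted p = 0.000301, edgeR). Nhp2 (chromosome 11, 51619735 to 51623714), a small RNA-binding subunit, had 181, 230 and 231 CPM in Vehicle and 267, 316 and 328 CPM in TCM.

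The lowest TCM library of Nhp2 lay above the highest Vehicle library (log2 fold change 0.51 ± 0.16, adjusted p = 0.0229, edgeR). The call was lost with library totals alone (0.29, adjusted p = 0.107) and without Vehicle replicate 1 (0.0655), Vehicle replicate 3 (0.0513), TCM replicate 2 (0.0822) or TCM replicate 3 (0.076). Gar1, the other small subunit here, went from 239 ± 50.4 to 273 ± 72.3 CPM (SD, n = 3) with overlapping libraries and did not pass (log2 fold change 0.19, adjusted p = 0.499). Without replicate 1 of both groups its adjusted p was 0.0262. Per kilobase of exon, Nhp2 and Gar1 had 205 and 188 CPM in Vehicle against 27.8 for Dkc1, and the order was the same per kilobase of coding sequence.

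Of 9 further snoRNP assembly genes 4 fell, 3 rose and 2 did not pass (44.4% lower and 33.3% higher, against 30.0% and 28.8% of all genes). With the trend on exon length removed 2 fell and 1 rose of the 8 with a length, and with that on coding length 1 fell and 1 rose. The smallest p-values were in genes that rose: Znhit3, a snoRNP assembly factor, went from 18.6 ± 0.381 to 42.3 ± 10.7 CPM (SD, n = 3). Nhp2l1, a protein that binds the box C/D RNA itself, went from 42.9 ± 4.67 to 96.3 ± 31.2 CPM.

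The factors of the small subunit processome, the large particle that folds and cuts the 40S precursor, and of later 40S assembly fell in 7 of 9 cases and rose in none. Wdr43 (chromosome 17, 71615895 to 71659031), which with Wdr75 and Utp15 belongs to the first complex to join the nascent RNA, had 141, 129 and 124 CPM in Vehicle and 79.2, 63.7 and 65.4 CPM in TCM. Vehicle and TCM libraries were well apart (log2 fold change -0.92 ± 0.14 SE, adjusted p = 0.000524, edgeR). Wdr75 fell by 0.70 on the log2 scale (adjusted p = 0.00116).

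Utp15, in contrast, had overlapping libraries at 71.8 ± 9.50 and 57.1 ± 9.55 CPM (SD, n = 3) and did not pass (log2 fold change -0.33, adjusted p = 0.0971, edgeR). It passed with the replicate block (adjusted p = 0.00225), without TCM replicate 1 (-0.47, adjusted p = 0.0133) and without replicate 1 of both groups (-0.38, adjusted p = 0.000604). Rrp9 (chromosome 9, 106475963 to 106485424), a protein of the U3 snoRNP that pairs with the precursor, had 119, 144 and 142 CPM in Vehicle and 95.9, 96.9 and 96.8 CPM in TCM. The TCM values were nearly identical, and all were below Vehicle (-0.48 ± 0.13, adjusted p = 0.0108). The call was lost without Vehicle replicate 2 (0.0541) or Vehicle replicate 3 (0.0525).

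Utp20, a long scaffold protein of the processome, went from 98.1 ± 10.5 to 72.6 ± 8.93 CPM (SD, n = 3; log2 fold change -0.43, adjusted p = 0.0264, edgeR), the called member closest to the threshold. It did not pass without Vehicle replicate 2 (0.114), Vehicle replicate 3 (0.0567) or TCM replicate 2 (0.113). Nop14 fell by 0.71 on the log2 scale, while its partner Noc4l had 108 ± 15.4 CPM in Vehicle and 114 ± 10.3 CPM in TCM and did not pass (0.08, adjusted p = 0.68). Rrp12, which takes part in export of the subunit, fell by 0.69 and Ddx10, an RNA helicase, by 0.79.

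In a separate list of 42 other small subunit genes, 28 fell, 5 rose and 9 did not pass (median log2 fold change -0.47). The shares were 66.7% lower and 11.9% higher, against 30.0% and 28.8% of all genes. Of the 39 with a length, 24 fell and 2 rose with the trend on exon length removed. With that on coding length removed 19 fell and 1 rose. Ltv1, a late 40S assembly factor, went from 36.1 ± 1.70 to 19.6 ± 0.862 CPM (SD, n = 3), and Nat10, an RNA acetyltransferase, from 64.3 ± 3.36 to 33.3 ± 3.21 CPM. Dimt1, a methyltransferase of the small subunit RNA, rose from 17.8 ± 3.72 to 27.0 ± 2.28 CPM. It did not pass with library totals alone (adjusted p = 0.194 in edgeR), where 29 of the list fell and 0 rose.

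The 3 members of the PeBoW complex, which joins the 60S precursor and is needed to cut its RNA, had negative fold changes and did not pass. Bop1 (chromosome 15, 76452989 to 76477277) had 77.9, 83.4 and 90.5 CPM in Vehicle and 69.4, 65.9 and 69.0 CPM in TCM. Wdr12 (chromosome 1, 60069785 to 60098645) had 38.7, 29.7 and 30.0 CPM in Vehicle and 27.7, 25.9 and 24.2 CPM in TCM. Pes1 went from 54.2 ± 3.53 to 45.8 ± 3.67 CPM (SD, n = 3).

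In all 3 PeBoW genes every TCM library was below every Vehicle library, with log2 fold changes of -0.30, -0.34 and -0.25 for Bop1, Wdr12 and Pes1 and adjusted p-values of 0.0514, 0.0596 and 0.0992 (edgeR). With the replicate number as a block all 3 passed, at adjusted p-values of 0.00709, 0.00308 and 0.0268 (edgeR). Without replicate 1 of both groups the values were 0.000467, 0.018 and 0.0114. Both settings also raised the calls over all genes, and no label says what a replicate number marks. Bop1 also passed without Vehicle replicate 1 (0.0384) and Bop1 and Wdr12 without TCM replicate 1 (0.0427 and 0.042). Per kilobase of coding sequence Bop1 had 38.2, Pes1 30.8 and Wdr12 25.8 CPM in Vehicle.

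Of the other 60S assembly factors 6 of 8 fell and none rose. Ebna1bp2 (chromosome 4, 118620799 to 118627776), an early 60S factor, had 51.3, 55.4 and 49.5 CPM in Vehicle and 32.6, 27.4 and 30.5 CPM in TCM. No TCM library came near the Vehicle range (log2 fold change -0.79 ± 0.12 SE, adjusted p = 0.000506, edgeR). Gnl3 (nucleostemin, a nucleolar GTPase) fell by 0.73 on the log2 scale and Nop2, an RNA methyltransferase, by 0.60. Rrp1b fell by 0.55, Ppan by 0.52 and Noc2l by 0.49.

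Noc2l did not pass without Vehicle replicate 3 (adjusted p = 0.0551, edgeR), TCM replicate 2 (0.0888) or TCM replicate 3 (0.0694). Rrs1 (chromosome 1, 9545408 to 9547455), which brings the 5S RNA particle into the precursor, had 147, 158 and 155 CPM in Vehicle and 121, 130 and 132 CPM in TCM. The groups did not overlap, but the difference was small (-0.27 ± 0.12 SE) and did not pass (adjusted p = 0.0907, with 0.0213 under the replicate block and 0.00467 without replicate 1 of both groups). Nop16 had 94.3 ± 1.51 CPM in Vehicle and 108 ± 3.88 CPM in TCM (SD, n = 3) and did not pass either (0.19, adjusted p = 0.175, and 0.0451 without replicate 1 of both groups).

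Ddx21 (chromosome 10, 62580251 to 62602281), an RNA helicase that acts in polymerase I transcription and in snoRNA release, had 248, 275 and 248 CPM in Vehicle and 157, 143 and 168 CPM in TCM. All Vehicle libraries were higher (log2 fold change -0.72 ± 0.14 SE, adjusted p = 0.00189, edgeR). A separate list of 41 other large subunit genes gave 22 lower, 6 higher and 13 that did not pass (median -0.47). The shares were 53.7% lower and 14.6% higher, against 30.0% and 28.8% of all genes. Of the 40 with a length, 24 fell and 3 rose with the trend on exon length removed. With that on coding length removed 20 fell and 3 rose. Noc3l went from 43.8 ± 4.60 to 21.7 ± 0.454 CPM (SD, n = 3) and Urb2, another 60S factor, had a log2 fold change of -0.88 ± 0.11 (SE). Sbds, which releases the anti-association factor from the finished 60S particle, rose from 29.8 ± 1.38 to 42.7 ± 2.66 CPM. With library totals alone Sbds did not pass (adjusted p = 0.185 in edgeR) and 0 of the list rose.

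**Figure D3:**
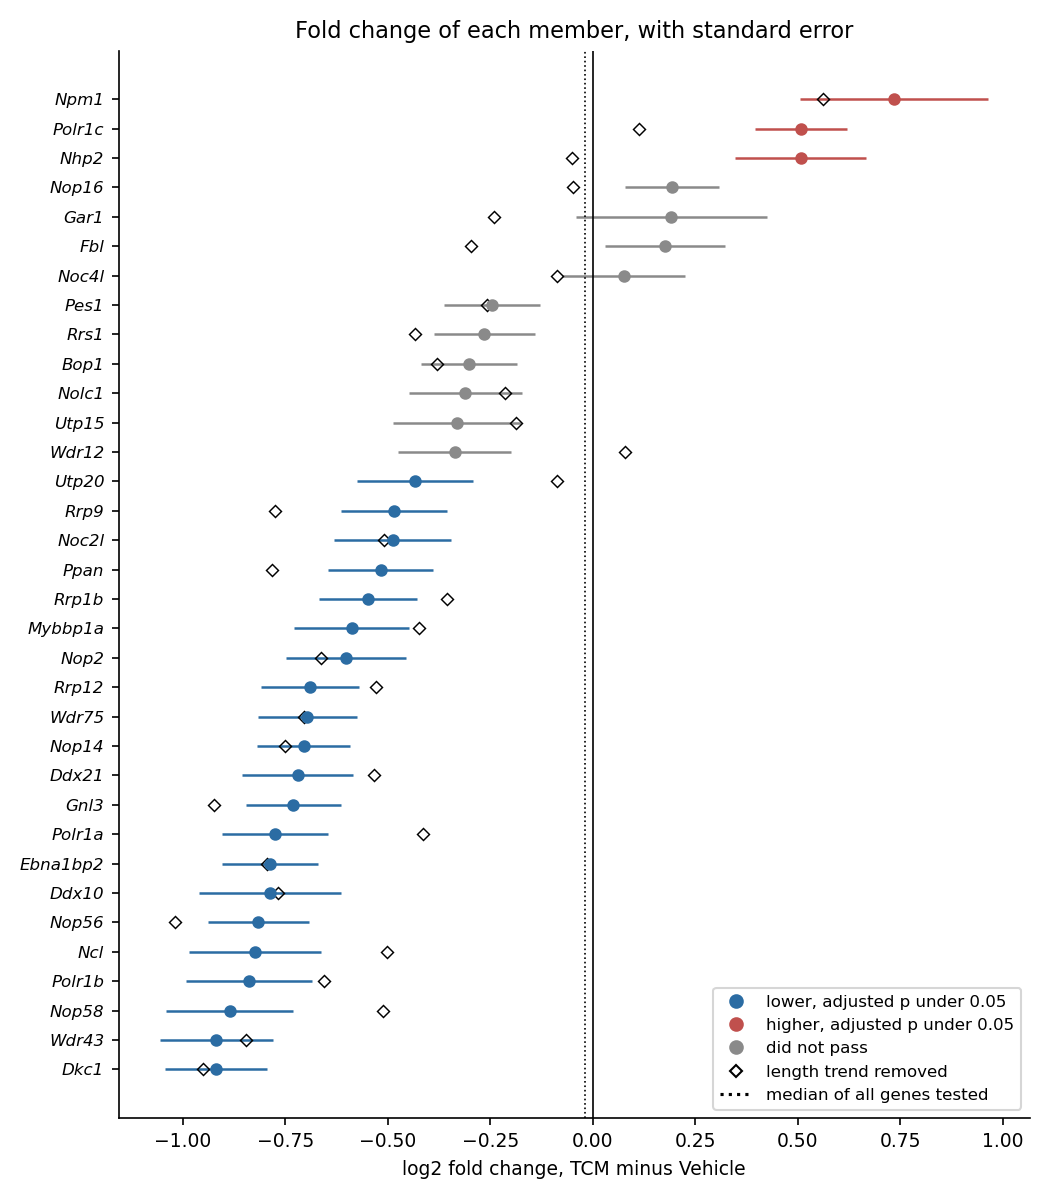
Log2 fold change, TCM minus Vehicle by the count table's header, with its standard error for each member (filled points, coloured by call) and the value after the trend on exon length was removed (open diamonds). The dotted line is the median of all genes tested. 21 filled points are called below 0 and 3 above it; no diamond of a gene above 0 passes, and with library totals alone Noc4l, Fbl, Gar1 and Nop16 fall below 0.

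RNA precursors are also cut and trimmed by nucleases. Of 14 nuclear exosome genes 6 rose, 3 fell and 5 did not pass (42.9% higher and 21.4% lower, against 28.8% and 30.0% of all genes). Mphosph6, an exosome partner, went from 18.8 ± 4.61 to 46.2 ± 2.34 CPM (SD, n = 3), whereas the exosome's helicase Skiv2l2 (also called Mtrex) went from 53.1 ± 4.52 to 32.4 ± 1.93 CPM. Of 11 genes of RNase MRP and RNase P 5 rose (45.5%), 0 fell and 6 did not pass. Rpp30 had 31.2 ± 3.16 CPM in Vehicle and 67.8 ± 14.1 CPM in TCM, and Pop5 had 37.9 ± 2.52 and 72.9 ± 12.1 CPM. Transcripts of both lists were short (median exon lengths 1686 and 1145 bases), and with the trend on exon length removed 2 and 3 of them rose and 1 and 1 fell.

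The ribosomal proteins, the products that these factors assemble, were mostly higher in TCM. Of 78 cytosolic ribosomal protein genes tested 52 rose, 1 fell (Rpl3, adjusted p = 0.0491, edgeR) and 25 did not pass, a median log2 fold change of 0.72 against -0.53 for the biogenesis genes. Rpl29 went from 210 ± 15.1 to 385 ± 52.4 CPM (SD, n = 3) and Rps27 from 4.82 ± 0.201 to 8.89 ± 1.56 CPM. Their median exon length was 993 bases, and with the trend on exon length removed 9 rose and 1 fell. Many have near-identical copies, so these values are uncertain.

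**Figure D4:**
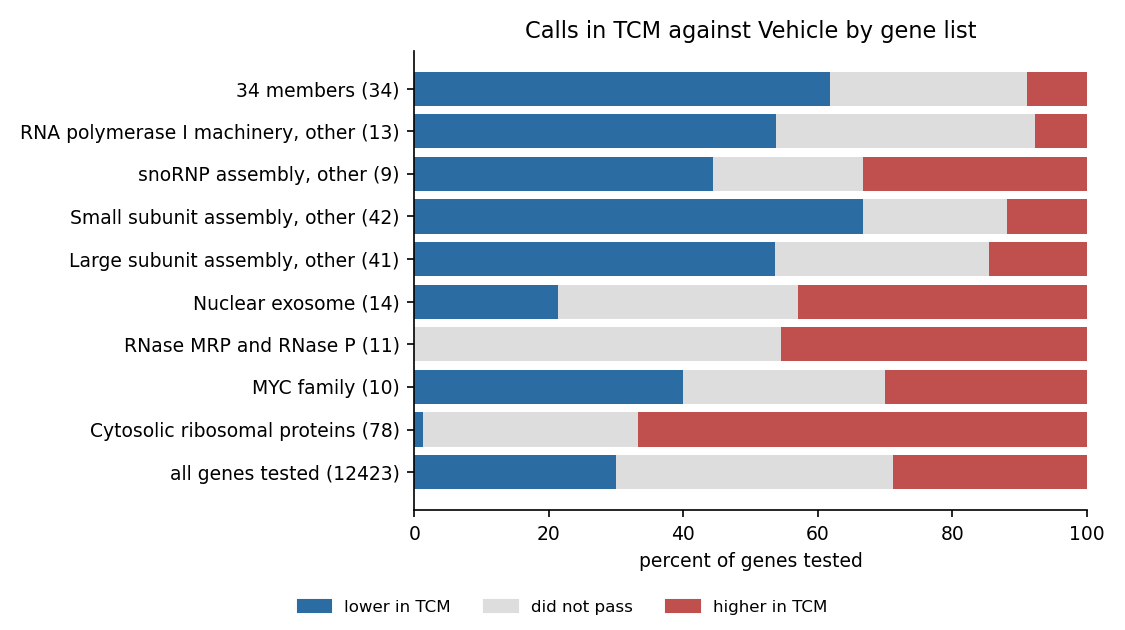
Percent of the genes tested in each list that were called lower (blue) or higher (red) in TCM by the count table's header, or did not pass (grey), with the number tested in brackets. The members are 61.8% lower and 8.82% higher, ribosomal proteins 66.7% higher, and all genes 30.0% and 28.8%; with library totals alone no member and no gene of either subunit assembly list was called higher.

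Of 10 MYC family genes tested 4 fell, 3 rose and 3 did not pass, where 30.0% of all genes fell and 28.8% rose. With the trend on exon length removed 2 of the 10 fell and 2 rose. With that on coding length removed 4 fell and 2 rose. Myc itself went from 988 ± 93.6 to 637 ± 7.87 CPM (SD, n = 3), a log2 fold change of -0.63 ± 0.16 (SE; adjusted p = 0.00773, edgeR), with all TCM libraries below all Vehicle libraries. Mxd1, which encodes a MAX partner that opposes MYC, fell from 235 ± 9.70 to 99.4 ± 5.38 CPM. Mxi1, another such partner, rose from 18.4 ± 1.39 to 39.8 ± 2.76 CPM. Whether any of these changes bears on the biogenesis genes was not tested.

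Over all genes, split into 5 equal classes of exon length, the median log2 fold change was 0.46 in the shortest class and -0.33 in the longest. The 7 members in the shortest class had a median of 0.19 (2 fell, 2 rose), and the 8, 8, 6 and 5 members in the longer classes had medians of -0.45, -0.74, -0.64 and -0.78. In each class the members' median lay below that of all genes, and the 3 that rose were all among the 10 with an exon length of at most 2031 bases. Across the 34 members, which share the 6 libraries, Pearson's r of log2 fold change with log2 exon length was -0.56, as a description.

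With the exon length trend removed, 22 members fell and 0 rose, with a median of -0.47. Npm1 stayed at 0.56 (adjusted p = 0.0665, edgeR), Polr1c at 0.11 and Nhp2 at -0.05, and Utp20 no longer passed (-0.09, adjusted p = 0.625). The annotated models of Ncl, Nop58 and Wdr12 reach 8202, 9539 and 10613 bases, of which 2121, 1624 and 1269 are coding. A trend on coding length, an alternative chosen after seeing the data, left 17 members lower and 1 higher (Polr1c at 0.36, adjusted p = 0.0243), with a median of -0.31. RNA quality is not given in the sources used here, and its part in the length trend was not tested.

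**Figure D5:**
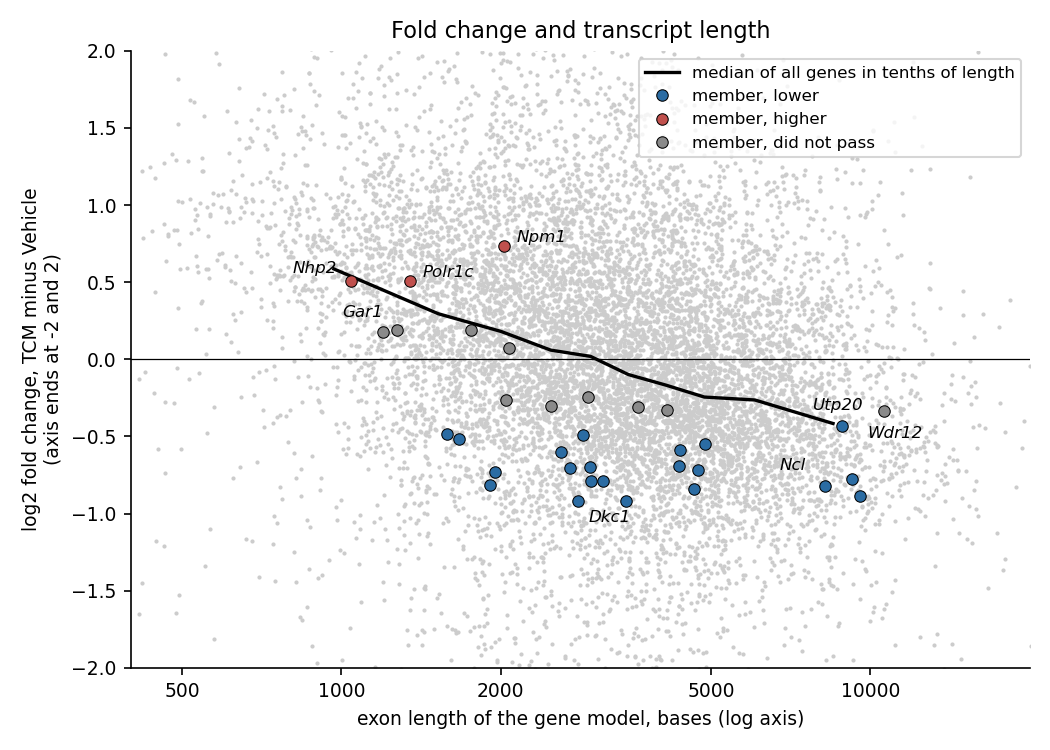
Log2 fold change, TCM minus Vehicle by the count table's header, against exon length of the gene model (log axis) for all genes tested (grey) and the 34 members (coloured by call); the black line is the median of all genes by length. The line falls from left to right, and the 3 members that rose are at most 2031 bases long; none of the 3 passes with library totals alone.

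In 13 members (Ncl, Polr1b, Nop56, Nop58, Dkc1, Wdr43, Wdr75, Nop14, Ddx10, Ppan, Gnl3, Ebna1bp2 and Ddx21) the fall passed in all 16 alternative settings that kept the count table's header. How many of all genes did so was not counted, so this number has no background (30.0% of all genes were called lower in the first fit). The members lie on 16 chromosomes, and each has 1 gene model in GENCODE M21, whose assembly GRCm38 is that of mm10. Of the 34, 11 share some of their span (exons or introns) with other genes that were tested: Ncl, Nop56, Wdr43 and Gnl3 with snoRNA genes hosted in them, Nop56 and Gnl3 also with Idh3b and Pbrm1, and Mybbp1a, Dkc1, Nhp2, Rrp9, Bop1, Wdr12 and Noc2l with a neighbouring gene. Transcripts of 12 members match an annotated pseudogene, most often Npm1 (8), Nop56 (5) and Rrs1 (3). How such reads were counted, and whether strand was used, is not given in the sources used here, so values of these genes are less certain. Per kilobase of exon, 33 of the 34 members lay above the median level of 11656 ranked genes in Vehicle and 13 among the highest 10%, Wdr12 being the exception.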

How the data were processed

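RNA sequencing of 6 splenocyte libraries was analysed, 3 titled Vehicle and 3 titled TCM. One deposited table gives raw counts of exon reads for each gene symbol. The other gives a signal: these counts after division, by the authors, by a size factor for each library. The build mm10 and the tools DESeq2 1.28.1 and STAR 2.7.2d are named per the submitters' processing notes. What each did, and how reads were assigned to genes and strands, is not given in the sources used here. Whole reads were recovered from the normalized columns for 100% of values above 0 (tolerance 0.1 reads), and with that table's titles edgeR then found 3726 genes higher in TCM and 3584 lower, the reverse of the count table's 3584 and 3726.

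The 92 spike-in rows, all at 0, were left out. Genes passing edgeR's filterByExpr were scaled with TMM and tested with edgeR 4.0.16 (R 4.3.3) on the counts, in a model of group alone, adjusting p by Benjamini-Hochberg over 12423 genes. DESeq2 1.42.0 was an alternative. The fit was tested on simulated data. CPM are TMM-scaled, and standard errors are the absolute log2 fold change over the square root of F. No library was a duplicate of another (chi-square per gene between libraries of a group, 5.15 to 111). Same-numbered libraries deviated together from their group means (correlations 0.60, 0.146 and 0.36 over genes), so the replicate number was also fitted as a block. Vehicle 2 with TCM 3 (0.424) and Vehicle 3 with TCM 2 (0.266) correlated as well, so only replicate 1 is set apart by number. That pairing is read from the titles and these correlations, and no label says what a number marks. Exon length is the union of coding transcripts' exons in GENCODE M21. Copies of transcripts were sought with BLAST 2.17.0.

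The members and lists were chosen with earlier results of these data known. All members are named. Values in each library are given, by role, for the most abundant member, the member with the largest change and any called against the rest. Of each other list the 2 genes with the smallest p and the first called against its direction are named, and Myc. Marker lists are given as sums, and the few marker genes named were chosen after their values were seen.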

Additional observations from a re-analysis of the deposited data

How the results depend on the processing

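The number of members that fell was 18 to 24 when single libraries were left out, 27 without replicate 1 of both groups and 17 to 27 over all settings with the count table's header. The number that rose was 1 to 3 with single libraries left out, 6 without replicate 1 of both groups, 0 with library totals alone, 0 with the exon length trend removed and 1 with the coding length trend removed. The members' median log2 fold change ran from -0.61 to -0.47 with single libraries left out, was -0.73 with library totals alone and -0.31 with the coding length trend removed. Under the normalized table's header 3 members were lower, 21 higher and the median was 0.53. Over all genes, 2818 to 4199 were called lower and 2878 to 4030 higher with single libraries left out, and library totals alone gave 3965 lower and 2364 higher. Without replicate 1 of both groups, 8 genes fell and 3 rose in the polymerase I list and 6 and 3 in snoRNP assembly. The subunit lists then gave 30 and 7 (small) and 28 and 8 (large). The exosome gave 3 and 7, RNase MRP and RNase P 0 and 8, the MYC family 4 and 3, and ribosomal proteins 1 and 72. With the replicate number as a block 27 members fell and 3 rose, the pairing ended no member's call, and of the members it changed only the 6 given above (Nolc1, Utp15, Pes1, Bop1, Wdr12 and Rrs1). The block also raised the calls over all genes, to 4594 lower and 4509 higher of 12423, from 3726 and 3584. Size factors from DESeq2, DESeq2's own test (21 lower, 3 higher), both filters and leaving out Rn45s kept 21 lower and 3 higher. Signs changed for Fbl (-0.05), Gar1 (-0.044), Noc4l (-0.14) and Nop16 (-0.021) with library totals alone, and for Noc4l (-0.041) without Vehicle replicate 1. They changed for Fbl (-0.30), Gar1 (-0.24), Nhp2 (-0.05), Noc4l (-0.087), Wdr12 (0.079) and Nop16 (-0.048) with the exon length trend removed. With the coding length trend removed they changed for Fbl (-0.001), Gar1 (-0.19), Nhp2 (-0.08), Utp20 (0.15) and Nop16 (-0.31, adjusted p = 0.0488 in edgeR), and Npm1 (0.55, adjusted p = 0.0746), Polr1a, Mybbp1a, Rrp12, Nop2, Rrp1b and Noc2l no longer passed. The cause was not tested. With 374 counts or more for each member in each library, counting error was small, and 3 libraries a group limit the precision.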
